A study of Mus musculus with 8 samples.

Results

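The liver makes most of the plasma proteins of blood coagulation, fibrinolysis and complement, and the messenger RNAs of 39 such proteins were examined in the liver of *Agpat3* wild-type (WT) and knockout (KO) mice. The set held 18 complement genes and 21 genes of coagulation, its inhibitors and fibrinolysis, chosen by name, out of 22911 named genes on the array. They had 52 of the 56605 probes without the controls, and each gene was read from the probe with the highest mean log2 signal over all arrays. Frozen livers were taken from 4 *Agpat3* WT and 4 *Agpat3* KO mice, all of them male, 10 weeks old and of the C57BL/6 strain, and each was hybridized with Cy3 to its own one-color Agilent array. AGPAT3 is an acyltransferase that places docosahexaenoic acid into membrane phospholipids, and the KO line lacked it in the whole body, so that the liver was not the only tissue affected. The sources used here do not say whether the mice were littermates.

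Complement is a cascade of plasma proteases that starts from antibodies, from lectins that bind sugars on microbes, or from spontaneous turnover of C3, and that ends with a pore in the target membrane. Coagulation is a second cascade of proteases, several of which need vitamin K for their carboxylation, and it ends with thrombin cutting fibrinogen into fibrin. Hepatocytes secrete nearly all of these proteins, and many of them, such as fibrinogen and C3, belong to the acute-phase proteins whose transcription responds to interleukin-6.

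Signals are given as log2 of the processed spot intensity minus the 75th percentile of the array, so that 0 is the level of that percentile. *Agpat3* itself lay between 5.65 and 5.88 in WT and between -0.58 and 0.02 in KO liver, which gave a limma estimate of -6.12 on the log2 scale (standard error, SE, 0.14, adjusted p = 4.61e-07). Between 29884 and 31890 probes per array were well above background, 0 spots were saturated, and 29066 probes were tested, those well above background in every mouse of one genotype or of both. A single slide, scanned once, held the 8 arrays, with WT livers in row 1 and KO livers in row 2. Row and genotype therefore cannot be told apart. The replicate number of each mouse was also its column on the slide. The 12 hepatocyte markers, among them *Alb*, were all tested, and the sum of their linear signals was 7932 to 8765 times the 75th percentile in WT and 7913 to 8440 times in KO liver. Whole tissue was measured, in which fewer cells of a type and less RNA per cell cannot be told apart.

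All 39 genes were well above background on the 8 arrays, and 0 of them were called at a fold change over 1.5 with a limma adjusted p under 0.2. Over all probes tested, 1.66% were called (482 of 29066), 0.939% higher and 0.719% lower. When the size of the change was ignored, *Mbl2* alone had an adjusted p under 0.2, a rule that 4.08% of all probes passed, 1.91% higher and 2.17% lower. At an unadjusted p under 0.05 of any fold change, *Mbl2* was higher and 8 genes (*C2*, *C3*, *Hc*, *C9*, *Cfi*, *F5*, *Fga* and *Fgg*) were lower in KO liver, which is 9 of 39 against 13.3% of all probes (5.58% higher and 7.68% lower).

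The 95% intervals show how large a difference these arrays leave room for. For 36 of the 39 genes, the interval lay within 1.5-fold in both directions, as it did for 74.0% of all probes and for 88.1% of the 11004 probes in the signal range of the 39 genes. The exceptions were *C6*, *Hc* and *C9*, all of the terminal complement pathway, whose intervals reached past 1.5-fold lower in KO liver (15.9% of all probes). For 0 of the 39 genes did the interval reach past 1.5-fold higher, against 12.7% of all probes. The median standard error of the log2 fold change was 0.07 for the 39 genes, 0.09 for the 11004 probes in their signal range and 0.12 for all probes tested.

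The differences were small and most of them had the same sign. The log2 fold change was below 0 for 35 of the 39 genes (89.7%), against 56.2% of all probes. Under the other scalings it was below 0 for 31 to 38 of the 39 genes. The fewest were with quantile normalization (55.8% of all probes) and the most with median scaling (65.3% of all probes). In lists described below, it was also below 0 for 13 of 14 liver transcription factors and 15 of 17 other acute-phase proteins. It was below 0 for 9 of 12 hepatocyte, 9 of 10 stellate and 4 of 10 endothelial cell markers. It was so for 21 of 31 further complement genes, 13 of 21 further coagulation and fibrinolysis genes and 3 of 7 vitamin K cycle genes. A high share below 0 was thus not particular to these 39 genes. These lists, like the 39 genes, were chosen with earlier results of these data known. The median was -0.10 over the 39 genes, -0.13 over the complement genes and -0.07 over the coagulation and fibrinolysis genes. It was -0.02 over all probes and likewise -0.02 over the 11004 probes of the same signal range. Without KO replicate 3, the median of the 39 genes was -0.06. The genes are not independent replicates, and no test was made of the median or of the shared sign.

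**Figure D1:**
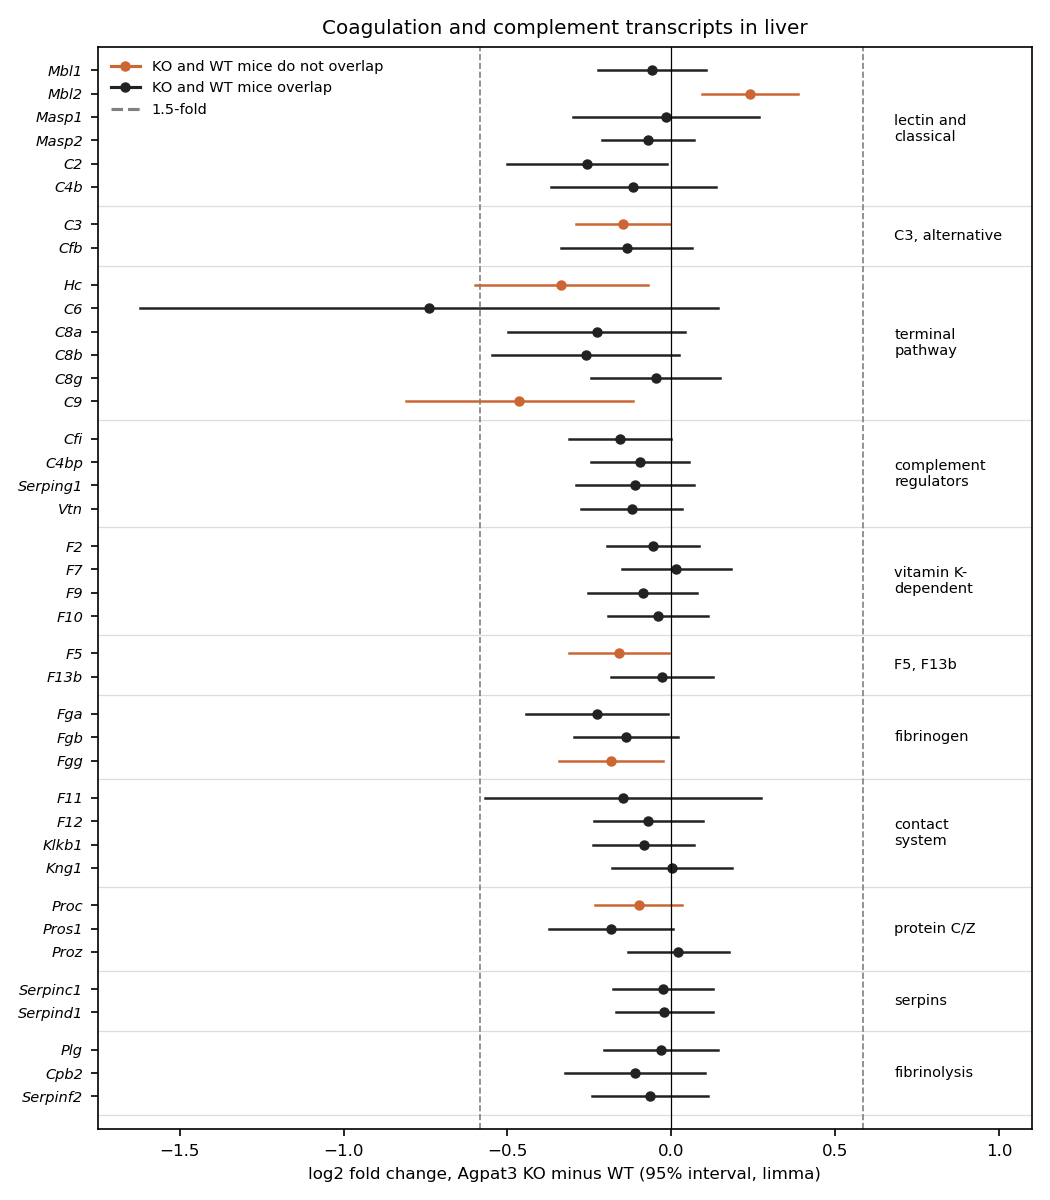
Log2 fold change of each of the 39 transcripts in *Agpat3* KO against WT liver (x axis, log2 units), with genes in rows grouped by role. Points are limma estimates from 4 mice per genotype, bars are 95% intervals, dashed lines mark 1.5-fold, and orange marks the 7 genes whose KO and WT mice did not overlap. The intervals of *C6*, *Hc* and *C9* cross the dashed line on the left, and 0 intervals cross the one on the right.

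In 7 of the 39 genes (17.9%), the KO mice did not overlap with the WT mice, compared with 8.79% of all probes tested. *Mbl2* was higher (3.69% of all probes were separated upwards), and *C3*, *Hc*, *C9*, *F5*, *Fgg* and *Proc* were lower (5.11% separated downwards). This count moved with the scaling. It was 1, *Mbl2*, with quantile normalization, under which 8.99% of all probes were separated. It was 15 with median scaling (9.30% of all probes) and 14 with normexp background correction (8.79% of all probes), with 1 gene higher in each. Without WT replicate 3 it was 15 (11.5% of all probes), and without KO replicate 1 it was 11 (12.7% of all probes).

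Among the recognition proteins and proteases of the lectin and classical pathways, *Mbl2*, which encodes the mannose-binding lectin MBL-C, was the exception to the common sign. Its log2 signals were 8.20, 8.29, 8.20 and 8.24 in WT and 8.44, 8.41, 8.57 and 8.47 in KO liver. The lowest KO mouse was above the highest WT mouse. This was a difference of 0.24 on the log2 scale (SE 0.06, 95% interval 0.09 to 0.39, limma adjusted p = 0.171), which is 1.18-fold and so short of the fold change of 1.5. The exact permutation test over all 70 assignments of the mice gave p = 0.0286 (two-sided), the smallest value that 4 mice against 4 allow. Any gene whose groups do not overlap gets this value, so it adds nothing to the separation. Over the other settings the log2 fold change of *Mbl2* lay between 0.20 and 0.30, and its adjusted p from 0.0555 to 0.437. *Mbl1*, the gene of the other mannose-binding lectin, MBL-A, had a log2 fold change of -0.06 (95% interval -0.22 to 0.11).

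*C2*, the protease that forms the C3 convertase together with C4, showed the largest difference of this group. Its log2 signals were 6.36, 6.26, 6.25 and 6.56 in WT and 5.97, 6.30, 5.97 and 6.14 in KO liver. KO replicate 2 lay among the WT mice, and the other KO mice lay below them. *C2* had a log2 fold change of -0.26 (SE 0.11, limma adjusted p = 0.354). *C4b*, the complement component cleaved by C1s and MASP-2, had -0.12 (95% interval -0.37 to 0.14). Its probe may also bind the RNA of the near-identical *C4a*, so that its value is uncertain. *Masp2*, a protease that is carried by the mannose-binding lectins, had -0.07 with its brightest probe (95% interval -0.21 to 0.07), and its other probes gave -0.08 and 0.17.

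*Masp1*, the gene of a related protease whose transcript is spliced into several forms, had 2 probes that differed by more than 0.3 on the log2 scale, as the probes of no other member did. The brighter probe gave -0.02 (95% interval -0.30 to 0.27). The dimmer probe, designed to another transcript, gave -0.49 with a limma adjusted p of 0.270. Neither was called, and both groups of mice overlapped with each probe.

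C3 is the component on which all starting routes converge, and factor B is the protease of the alternative pathway. *C3* had log2 signals of 10.43, 10.37, 10.29 and 10.43 in WT and 10.24, 10.25, 10.19 and 10.25 in KO liver. The KO mice lay below the WT mice without overlap, by a narrow margin between WT replicate 3 and KO replicate 4. The difference of -0.15 on the log2 scale (SE 0.06, limma adjusted p = 0.366) is 1.11-fold, and the second probe of *C3* gave -0.16. With quantile normalization the difference was -0.06 and the groups overlapped. *Cfb*, the gene of factor B, had -0.14 (95% interval -0.34 to 0.06).

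The terminal pathway, in which C5b, C6, C7, C8 and C9 assemble into the membrane pore, held the largest differences of the set. Its 6 genes had a median log2 fold change of -0.30. All of them were below 0, except that *C8g* turned above 0 with quantile normalization and without KO replicate 1. None was called. *Hc*, the mouse gene of C5, had log2 signals of 6.09, 6.10, 5.92 and 6.42 in WT and 5.90, 5.87, 5.63 and 5.79 in KO liver. The KO mice lay below the WT mice, and the gap between KO replicate 1 and WT replicate 3 was small beside the spread within each genotype. The log2 fold change of *Hc* was -0.34 (SE 0.11, 95% interval -0.60 to -0.07, limma adjusted p = 0.268).

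*C6* had the largest difference of the 39 genes and also the largest error. Its log2 signals were 4.40, 3.85, 3.73 and 3.65 in WT and 3.91, 3.63, 2.03 and 3.12 in KO liver. KO replicate 3 lay far below all other mice, and KO replicate 1 lay above all WT mice but replicate 1. This gave a log2 fold change of -0.74 (SE 0.38, 95% interval -1.62 to 0.14, limma adjusted p = 0.466), which is 1.67-fold lower. Without KO replicate 3, it was -0.36.

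*C9*, whose product forms most of the pore, had log2 signals of 7.96, 7.79, 7.53 and 7.94 in WT and 7.52, 7.52, 6.96 and 7.36 in KO liver. All KO mice lay below all WT mice, with WT replicate 3 next to KO replicates 1 and 2. *C9* thus had a log2 fold change of -0.46 (SE 0.15, 95% interval -0.81 to -0.12, limma adjusted p = 0.250), which is 1.38-fold lower. Its exact permutation p, like that of the other separated genes, was 0.0286, a value fixed by the lack of overlap. Without KO replicate 3, the log2 fold change of *C9* was -0.34.

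C8 is made of 3 chains from 3 genes, of which *C8a* and *C8b* are neighbors in the genome. *C8a* lay between 6.02 and 6.34 in WT and between 5.66 and 6.12 in KO liver, with a log2 fold change of -0.23 (95% interval -0.50 to 0.04). *C8b* lay between 6.78 and 6.89 in WT and between 6.29 and 6.92 in KO liver, where KO replicate 2 was the highest of all 8 mice. Its log2 fold change was -0.26 with the brighter probe (95% interval -0.55 to 0.02) and -0.47 with the other, and neither was called. Without KO replicate 3, *C8a* was at -0.13 and *C8b* at -0.16 with these brightest probes. *C8g* had -0.05 (95% interval -0.25 to 0.15).

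**Figure D2:**
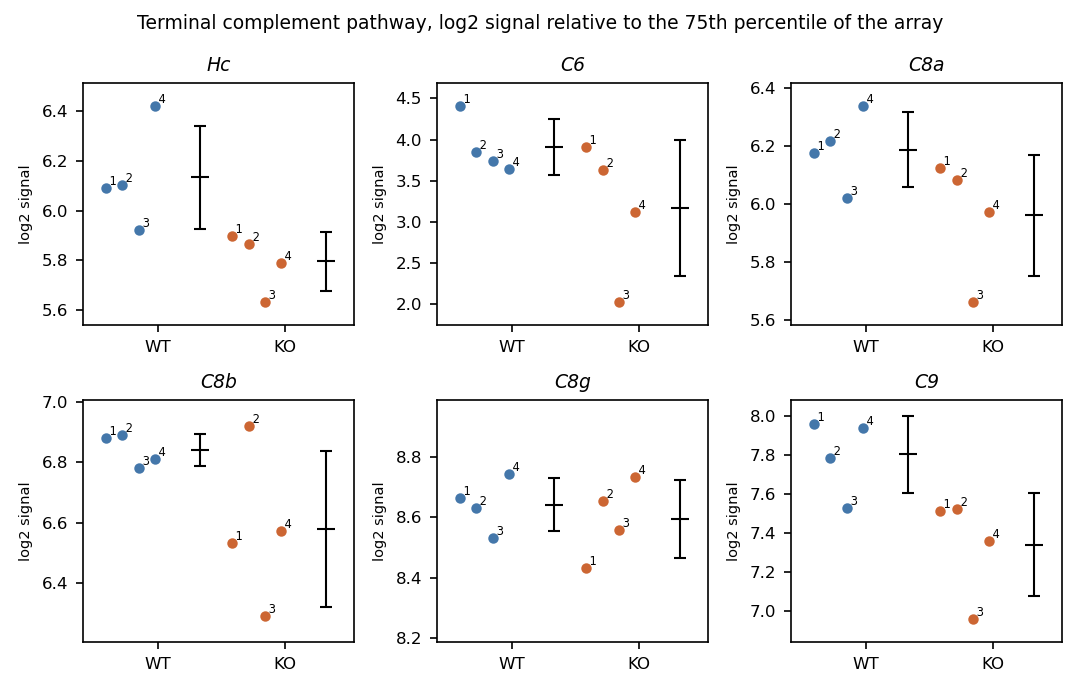
Log2 signal (y axis, 0 is the 75th percentile of the array) of the 6 terminal complement genes in the 4 WT and 4 KO livers. Points are mice, numbered by replicate, and the bar beside each group is its mean with SD. KO replicate 3 is the lowest KO mouse for *Hc*, *C6*, *C8a*, *C8b* and *C9*, with 2.03 for *C6* as the lowest value.

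The 4 regulators of complement had a median log2 fold change of -0.12 and a range from -0.16 to -0.10. *Cfi*, the gene of factor I, which cleaves C3b and C4b, had log2 signals of 8.06, 8.04, 7.95 and 8.01 in WT and 7.96, 7.88, 7.76 and 7.84 in KO liver. The groups touched at WT replicate 3 and KO replicate 1, and the other KO mice lay below the WT mice. The log2 fold change of *Cfi* was -0.16 (SE 0.07, limma adjusted p = 0.374). *C4bp*, whose product is a cofactor for factor I, had -0.10 (95% interval -0.25 to 0.05). *Serping1*, the gene of the C1 inhibitor, had -0.11 (95% interval -0.29 to 0.07), and *Vtn*, whose product vitronectin binds the assembling pore, had -0.12 (95% interval -0.28 to 0.03).

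Fibrinogen is built from 3 chains encoded by 3 neighboring genes, *Fgg*, *Fga* and *Fgb*, and their log2 fold changes were -0.18, -0.23 and -0.14. *Fgg* had log2 signals of 9.94, 9.90, 9.80 and 10.03 in WT and 9.73, 9.74, 9.73 and 9.73 in KO liver. The KO mice were nearly alike and lay below the WT mice, the lowest of which was replicate 3 (SE of the log2 fold change 0.07, limma adjusted p = 0.304). *Fga* had log2 signals of 6.46, 6.46, 6.35 and 6.72 in WT and 6.23, 6.17, 6.36 and 6.33 in KO liver. KO replicate 3 and WT replicate 3 overlapped, WT replicate 4 was the highest mouse, and the difference had a standard error of 0.09 and a limma adjusted p of 0.354. The second probe of *Fga* gave -0.06. *Fgb* lay between 9.99 and 10.22 in WT and between 9.96 and 10.00 in KO liver (limma adjusted p = 0.437). With quantile normalization the median of the 3 chains was -0.06 in place of -0.18, still below 0 for each chain.

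The sequences before the start of the fibrinogen genes are shown because the 3 chains are known to be expressed together. Those of *C9* and *Mbl2* are shown as the separated genes with the largest differences in each direction. Each is the 250 bases before the transcript start in RefSeq on GRCm38.p6, written in the direction of transcription, and 30 of the 39 genes had such a window. Capitals mark matches, on either strand, to GTTAAT (a half-site of the factor HNF1), TTNNGCAA (a C/EBP motif) or CTGGGA (the type II interleukin-6 element). The windows are chr3:83007474-83007723 on the plus strand for *Fgg*, chr3:83025903-83026152 on the plus strand for *Fga*, chr3:83049864-83050113 on the minus strand for *Fgb*, chr15:6445096-6445345 on the plus strand for *C9* and chr19:30232678-30232927 on the plus strand for *Mbl2*.
Fgg: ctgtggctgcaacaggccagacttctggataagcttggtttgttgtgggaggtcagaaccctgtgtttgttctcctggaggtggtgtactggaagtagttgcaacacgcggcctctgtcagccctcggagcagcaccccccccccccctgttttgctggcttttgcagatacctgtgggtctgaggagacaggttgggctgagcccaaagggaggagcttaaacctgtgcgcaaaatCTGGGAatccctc
Fga: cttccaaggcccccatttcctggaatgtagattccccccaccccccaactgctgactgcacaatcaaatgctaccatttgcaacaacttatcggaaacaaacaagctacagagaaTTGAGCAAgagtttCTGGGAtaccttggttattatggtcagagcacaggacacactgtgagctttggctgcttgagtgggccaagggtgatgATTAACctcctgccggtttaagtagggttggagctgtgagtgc
Fgb: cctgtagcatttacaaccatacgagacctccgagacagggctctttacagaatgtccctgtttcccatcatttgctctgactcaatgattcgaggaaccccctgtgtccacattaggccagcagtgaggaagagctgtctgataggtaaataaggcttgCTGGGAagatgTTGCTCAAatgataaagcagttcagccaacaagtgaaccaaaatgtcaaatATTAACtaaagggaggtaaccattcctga
C9: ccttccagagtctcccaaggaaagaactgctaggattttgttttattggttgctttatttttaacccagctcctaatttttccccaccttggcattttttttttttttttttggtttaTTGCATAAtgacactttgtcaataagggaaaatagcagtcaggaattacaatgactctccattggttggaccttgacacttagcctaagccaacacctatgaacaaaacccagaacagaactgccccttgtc
Mbl2: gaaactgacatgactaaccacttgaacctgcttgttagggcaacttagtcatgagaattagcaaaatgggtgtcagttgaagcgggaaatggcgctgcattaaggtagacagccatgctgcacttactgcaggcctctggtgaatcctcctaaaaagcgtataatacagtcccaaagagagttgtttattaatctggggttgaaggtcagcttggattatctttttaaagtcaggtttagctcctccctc

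*Fga* and *Fgb* each held all 3 motifs. The half-site lay at -43 to -38 in *Fga* and at -29 to -24 in *Fgb*, counted from the transcript start, and the C/EBP motif lay at -135 to -128 and at -80 to -73. *Fgg* held the interleukin-6 element, at -13 to -8. *C9* held 1 match, to C/EBP, at -132 to -125, and *Mbl2* held 0. Over the 30 windows of the set, the half-site was found in 9 (30.0%), against 6.43% of all 32851 windows of this length. The C/EBP motif was found in 7 (23.3%, against 9.56%) and the interleukin-6 element in 12 (40.0%, against 27.0%). Also searched were TCACNCCAC, a site of the sterol regulatory factors, found in 0 windows (1.05% of all), and TATAAA, as written only, found in 2 (6.67%, against 7.59%). The matches in the printed windows do not overlap each other, and a match describes the letters and not a bound factor.

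**Figure D3:**
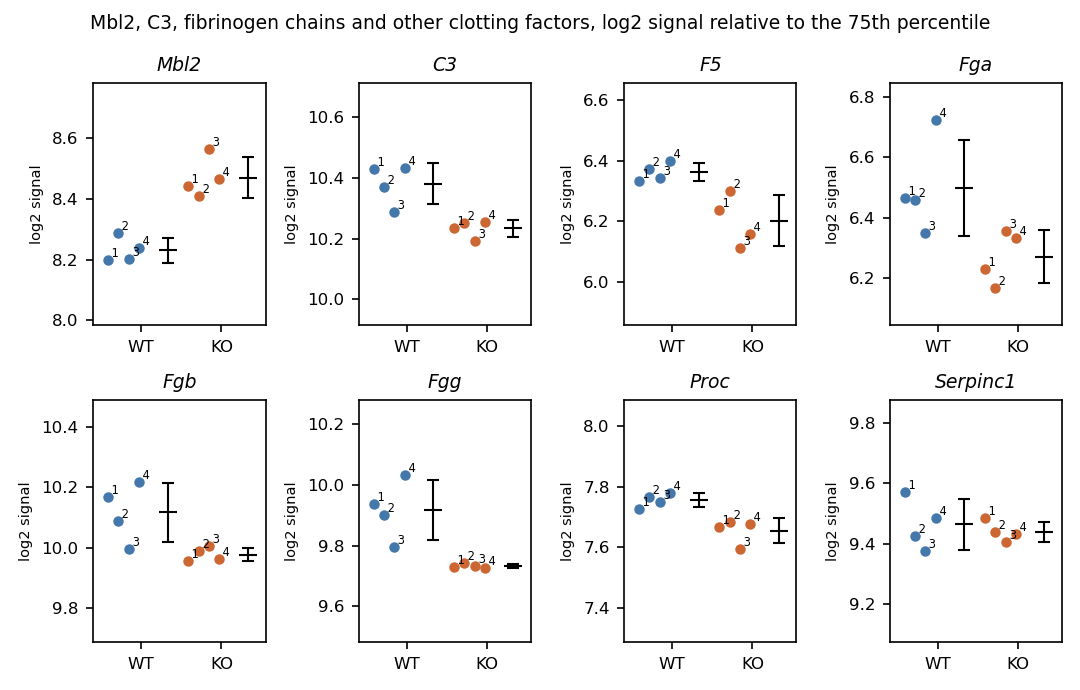
Log2 signal (y axis, 0 is the 75th percentile of the array) of *Mbl2*, *C3*, *F5*, the fibrinogen chains, *Proc* and *Serpinc1* in the 4 WT and 4 KO livers. Points are mice, numbered by replicate, the bar beside each group is its mean with SD, and each panel has its own y axis, which does not start at 0. *Mbl2* lies higher in all KO mice, and *Serpinc1* overlaps fully.

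The vitamin K-dependent zymogens are grouped here without proteins C, S and Z, which are read with the anticoagulants below. The group holds the precursors of thrombin and of factors VII, IX and X. The log2 fold changes of its 4 genes lay between -0.09 and 0.02, and the median of -0.05 turned to 0.01 with quantile normalization. *F9*, the gene of the factor missing in hemophilia B, had log2 signals of 4.81, 4.82, 4.78 and 4.97 in WT and 4.80, 4.78, 4.65 and 4.82 in KO liver. The groups overlapped, and the difference of -0.09 (SE 0.07, limma adjusted p = 0.665) was about as large as its error. *F2*, the gene of prothrombin, had -0.06 (95% interval -0.20 to 0.08). *F7*, whose product starts clotting together with tissue factor, had 0.02 (95% interval -0.15 to 0.18), and *F10*, its neighbor in the genome, had -0.04 (95% interval -0.19 to 0.11).

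*F5* encodes factor V, the cofactor of factor Xa. Its log2 signals were 6.33, 6.37, 6.34 and 6.40 in WT and 6.24, 6.30, 6.11 and 6.16 in KO liver. The KO mice lay below the narrow WT range. On the log2 scale the difference was -0.16 (SE 0.07, limma adjusted p = 0.352), which is 1.12-fold lower. *F13b*, the carrier subunit of the transglutaminase that cross-links fibrin, had -0.03 (95% interval -0.19 to 0.13).

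The contact system starts clotting on charged surfaces and releases bradykinin. *F11*, the gene of factor XI, varied widely, with log2 signals of 4.17, 5.03, 4.75 and 4.46 in WT and 4.30, 4.71, 4.33 and 4.48 in KO liver. WT replicate 1 was the lowest and WT replicate 2 the highest of all mice. Its log2 fold change was -0.15 (SE 0.18, limma adjusted p = 0.784), and it was -0.29 without WT replicate 1 and -0.01 without WT replicate 2. *F12*, which encodes the protease that starts this system, had -0.07 (95% interval -0.24 to 0.10), and *Klkb1*, the gene of plasma prekallikrein and a neighbor of *F11*, had -0.08 (95% interval -0.24 to 0.07). *Kng1*, the source of bradykinin, had 0.00 with its brightest probe (95% interval -0.18 to 0.18) and 0.05 and 0.11 with its other probes. Cross-hybridization between related kininogen transcripts was not tested.

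Protein C, a protease that inactivates factor V, and its cofactor protein S limit clotting. *Proc* had log2 signals of 7.73, 7.77, 7.75 and 7.78 in WT and 7.67, 7.68, 7.59 and 7.68 in KO liver. The groups did not overlap, and the difference was small, with a log2 fold change of -0.10 (SE 0.06, limma adjusted p = 0.517), or 1.07-fold lower. *Pros1*, the gene of protein S, had log2 signals of 5.05, 5.09, 5.01 and 5.22 in WT and 4.97, 4.91, 4.75 and 5.01 in KO liver. The groups met at WT replicate 3 and KO replicate 4, and the log2 fold change was -0.18 (SE 0.08, limma adjusted p = 0.391). *Proz*, the gene of protein Z, had 0.02 (95% interval -0.13 to 0.18).

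*Serpinc1* encodes antithrombin, the main inhibitor of thrombin and factor Xa, and it had log2 signals of 9.57, 9.43, 9.38 and 9.48 in WT and 9.48, 9.44, 9.40 and 9.43 in KO liver. The KO mice lay inside the range of the WT mice. *Serpinc1* had a log2 fold change of -0.02 (SE 0.07, limma adjusted p = 0.910), and it turned to 0.07 with quantile normalization and to 0.01 without WT replicate 1. *Serpind1*, the gene of heparin cofactor II, likewise had -0.02 (95% interval -0.17 to 0.13).

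In fibrinolysis, plasmin dissolves fibrin, and the carboxypeptidase encoded by *Cpb2* slows this down by removing the lysines to which plasminogen binds. *Cpb2* had log2 signals of 7.65, 7.47, 7.37 and 7.54 in WT and 7.33, 7.49, 7.24 and 7.52 in KO liver. The groups overlapped, with KO replicates 2 and 4 at WT levels (log2 fold change -0.11, standard error 0.09, limma adjusted p = 0.665). *Plg*, the gene of plasminogen, had -0.03 (95% interval -0.21 to 0.14), and *Serpinf2*, the gene of the plasmin inhibitor antiplasmin, had -0.06 (95% interval -0.24 to 0.11).

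The mice of a genotype differed from each other in many of these genes at once. The median deviation of the 39 genes from the WT mean was 0.00, -0.01, -0.07 and 0.05 in WT replicates 1 to 4 and -0.10, -0.04, -0.18 and -0.06 in KO replicates 1 to 4. KO replicates 2 and 4 lay above WT replicate 3, so that the genotypes overlapped in this measure. KO replicate 3 was the lowest KO mouse in 26 of the 39 genes (66.7%), against 24.9% of all probes. WT replicate 3 was the lowest WT mouse in 23 genes (59.0%, against 20.7% of all probes), and WT replicate 4 was the highest in 23 (59.0%, against 34.0%). Both mice with the number 3 lay in column 3 of the slide, and the part of the column in these values was not tested.

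In the terminal pathway alone, the median deviation was 0.03, -0.01, -0.17 and 0.12 in WT replicates 1 to 4 and -0.22, -0.19, -0.54 and -0.30 in KO replicates 1 to 4. In this median all KO mice lay below WT replicate 3, the lowest WT mouse, KO replicate 2 by little. In the fibrinogen chains the corresponding values were 0.02, -0.03, -0.12 and 0.12 in WT and -0.19, -0.17, -0.14 and -0.17 in KO liver. All probes tested had medians between -0.01 and 0.02 in the WT mice and between -0.04 and -0.01 in the KO mice.

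**Figure D4:**
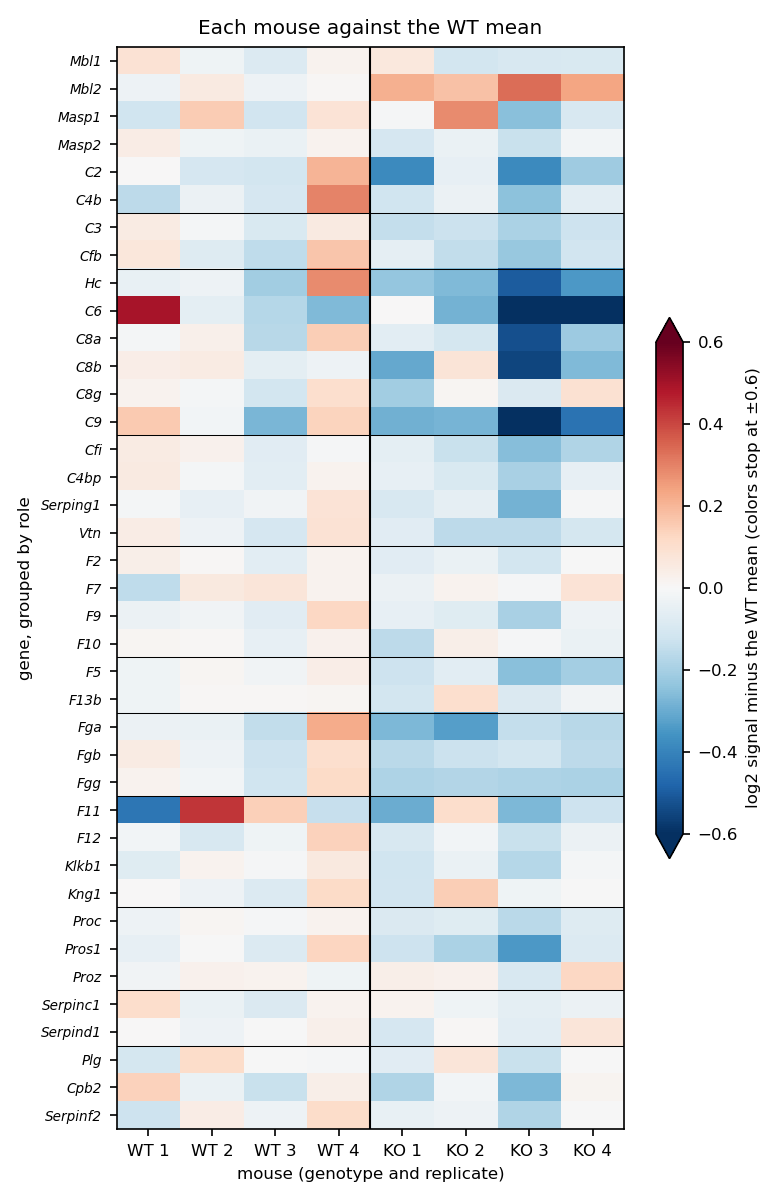
Log2 signal of each of the 39 genes (rows, grouped by role) in each mouse (columns) minus the mean of the WT mice. Red is above and blue below the WT mean, and colors stop at 0.6 log2 units in either direction. *Mbl2* is red in all KO mice, and the column of KO replicate 3 is the bluest, with a median of -0.18.

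Of 34 further complement genes, such as receptors, C1 subunits and membrane regulators, 31 were tested, 0 were called in either direction, and their median log2 fold change was -0.07. The largest difference was that of *Susd4*, a complement regulator of the cell surface, at -1.10 (SE 0.32, limma adjusted p = 0.205), just short of the threshold. Its log2 signals were 4.42, 4.37, 4.35 and 5.01 in WT and 3.27, 4.09, 2.56 and 3.83 in KO liver, without overlap and with KO replicate 3 the lowest. *Susd4* was called under 5 of 24 other settings, among them median scaling, normexp background correction and the replicate block.

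Of 26 further genes of coagulation and fibrinolysis, 21 were tested, 0 were called higher and 1 was called lower (0.719% of all probes were), with a median log2 fold change of -0.11. The gene that fell was *Serpine2*, which encodes a serpin of the tissues, protease nexin-1, that inhibits thrombin. It had log2 signals of 3.18, 2.44, 2.38 and 3.24 in WT and 1.81, 1.61, 0.68 and 1.53 in KO liver. The genotypes did not overlap, and KO replicate 3 was again the lowest. The log2 fold change of *Serpine2* was -1.40 (SE 0.30, limma adjusted p = 0.105), and it was called under 22 of 24 other settings, the exceptions being an adjusted p under 0.05 and no filter on dim probes. Of 8 genes of the vitamin K cycle, 7 were tested, 0 were called, and the median was 0.02. The largest difference among them was that of *Gas6*, a vitamin K-dependent ligand of receptor kinases, at 0.41 (limma adjusted p = 0.394).

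Lists that share the regulation or the cell of origin of these genes were read in the same way. All 14 transcription factors of the liver were tested and 0 were called. Their median log2 fold change was -0.16, and the largest difference was that of *Prox1*, at -0.57 (limma adjusted p = 0.274). All 17 other acute-phase proteins were tested, 0 were called, and the median was -0.25. *Saa2*, a serum amyloid A gene, had the largest difference of these, -0.87 with a standard error of 0.70 (limma adjusted p = 0.654). Its log2 signals were 5.69, 6.99, 6.52 and 8.70 in WT and 5.36, 7.63, 5.53 and 5.91 in KO liver, with WT replicate 4 the highest. WT replicate 4 was also the highest WT mouse in 23 of the 39 coagulation and complement genes (59.0%, against 34.0% of all probes). The lowest mice differed. They were WT replicate 1 and KO replicate 1 for *Saa2*, and most often replicate 3 of each genotype for the 39 genes. The part of the acute-phase response in the values of the 39 genes was not tested.

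Markers of the cells that a liver sample can hold were read beside these values. The 12 hepatocyte markers had a median log2 fold change of -0.05, with 0 called and *Tdo2*, an enzyme of tryptophan breakdown, the farthest from 0 at -0.33. Of the 10 Kupffer cell markers, 0 were called higher and 1 lower (0.719% of all probes were). This was the scavenger receptor *Marco*, at -1.22 (SE 0.25, limma adjusted p = 0.0992). The sum of the Kupffer cell list was 99.9 to 165.5 times the 75th percentile in WT and 85.1 to 141.6 times in KO liver. *Marco* was not called without WT replicate 3, without KO replicate 2, at an adjusted p under 0.05 or with no filter on dim probes. Its log2 fold change lay between -1.40 and -1.06 over all settings. The 10 endothelial and the 10 stellate cell markers had medians of 0.01 and -0.07 with 0 called. The farthest from 0 were *Lyve1* at -0.52 (limma adjusted p = 0.316) and *Col1a1* at -0.95 (limma adjusted p = 0.418). Of the 9 platelet markers, 3 were tested and 0 called, the signal of *Tubb1* stayed near background on all arrays, and the sum was 0.932 to 1.67 times in WT and 0.807 to 1.11 times in KO liver. Neutrophil markers (4 of 8 tested, median -0.55), lymphocyte markers (5 of 8, -0.14), erythroid markers (4 of 7, -0.25), cholangiocyte markers (4 of 7, -0.20) and pancreatic acinar markers (6 of 10, 0.03) had 0 calls as well. The sum of the neutrophil list was 2.50 to 4.90 times in WT and 1.79 to 3.46 times in KO liver, and that of the erythroid list 235.3 to 292.2 and 166.9 to 283.6 times. The acinar genes *Prss2*, *Cela3b*, *Cpa1* and *Pnlip* were near background on every array. Of the acinar genes tested, *Cela1* was the farthest from 0, at -0.54 (limma adjusted p = 0.293). The sum of the acinar list was 44.0 to 56.7 times in WT and 28.6 to 44.2 times in KO liver. The part of these cells in the values above was not tested.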

How the data were processed

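Liver RNA of 4 *Agpat3* WT and 4 *Agpat3* KO mice was hybridized to one-color Agilent arrays. For each array the authors deposited spot intensities from Agilent Feature Extraction 10.7.1.1, background-corrected and on a linear scale. They also deposited 1 table of log2 values, which equal log2 of the processed intensity minus the 75th percentile of the array (100% within 0.05).

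Samples were grouped by genotype label. Outlier spots and control probes were dropped, log2 signals averaged per probe, and the array's 75th percentile subtracted. A probe was tested if every array of a genotype showed it well above background. The two-sided test was limma's (version 3.58.1, lmFit with eBayes, R 4.3.3), with Benjamini-Hochberg adjustment over 29066 probes. Thresholds for a call (1.5-fold, adjusted p under 0.2) are those of the study's legend, which does not say whether p is adjusted. The test was checked on simulated data. Exact permutation tests ran over 70 assignments of the mice. Local background was 27 to 32 intensity units and the 75th percentile 261.4 to 309.0. The number of arrays limits the precision.

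Symbols came from RefSeq through transcript accessions (32994 of 56605 probes matched). The scanner header names another build than the promoter table, GRCm38.p6, so probes have no coordinates here. Values in each mouse were given for genes called or separated and for the largest difference in each role. The genes and lists were chosen with earlier results of these data known. Alternatives were other scalings, normexp with an offset of 50 on the median spot signal, the deposited log2 table, other filters, thresholds, tests and probes, and each mouse left out. Of the members, *Masp1*, *C2*, *C4b*, *Cfb*, *Cfi*, *Serping1*, *Kng1*, *Proc* and *Plg* had no promoter window here.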

Additional observations from a re-analysis of the deposited data

Results flagged for a closer look

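In 3 of the 78 groups examined (39 genes in each genotype), 1 mouse lay apart from the other mice of its genotype by the gap-to-range criterion of Dixon, which chance meets in about 5% of groups. Over all probes tested it was met in 5.99% of groups. *Mbl1* had a log2 signal of 4.86 in KO replicate 1, above the 4.68 to 4.70 of the other KO mice. *F13b* had 4.48 in WT replicate 1, below the 4.51 to 4.52 of the other WT mice. *Proc* had 7.59 in KO replicate 3, below the 7.67 to 7.68 of the other KO mice, and KO replicate 3 was the lowest KO mouse in 26 of the 39 genes.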

How the results depend on the processing

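The count of called genes was 0 under all settings but 2. It was 1 with no minimum fold change (*Mbl2*, 0.24), a rule that 4.08% of all probes passed. It was also 1 with the unadjusted p under 0.2 (*C6*, -0.74). The share of all probes under that rule was not counted, so this 1 gene cannot be weighed against it. The count was 0 to 0 with 1 mouse left out in turn. With the 1.5-fold rule this was largely fixed in advance, since all 39 genes but *C6* stayed short of it under every setting. The adjusted p alone did move. With limma's trend and robust options it was 0.0555 for *Mbl2*, 0.143 for *Fgg* and 0.154 for *C3*. For *C9* it was 0.145 in limma with normexp and 0.18 with median scaling, and for *Proc* 0.195 in the unpaired t test. The share of all probes under 0.2 in these settings was not counted. The median log2 fold change of the 39 genes stayed between -0.14 and -0.06, and the count of genes with an interval within 1.5-fold between 34 and 37. The count of genes without overlap was the least stable. It was 7 as reported (8.79% of all probes), 1 with quantile normalization (8.99%), 15 with median scaling (9.30%) and 14 with normexp background correction (8.79%), and 7 to 15 with 1 mouse left out (11.5% to 15.1%). *Serpinc1* changed sign, to 0.073 with quantile normalization, and lay between -0.054 and 0.011 with 1 mouse left out, above 0 without WT replicate 1. Of 384 values of single named genes under other settings, 380 had the same sign and the same call, and the other changes are those of *Mbl2*, *C6* and *Serpinc1* above. This count was largely fixed in advance. All of these genes but *C6* stayed short of 1.5-fold under every setting, so with that rule their call could not change. Settings that changed only a threshold could not change the sign. Over all probes, 273 were called higher and 209 lower, against 181 and 65 with normexp and 166 and 103 with the unpaired t test, and 121 and 130 with no filter on dim probes. Leaving out 1 mouse gave between 153 higher and 104 lower (without WT replicate 3) and 331 higher and 305 lower (without WT replicate 4). *Susd4*, *Serpine2*, *Marco* and *Agpat3* were put through the same settings after their values were seen. *Serpine2* was called under 22 of 24, *Marco* under 20, *Susd4* under 5 and *Agpat3* under 24, with no change of sign. The cause of these changes was not tested.

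Same-numbered mice were not taken as pairs, since the numbers do not come from shared animals, but they did share a column of the slide. Their deviations from the group means correlated above 0.1 over all probes in 3 of 4 pairs (0.32, -0.10, 0.10 and 0.31). In those 3 pairs the WT mouse correlated best with the KO mouse of its own number. KO replicate 3 correlated better with WT replicate 2 (0.26). The part of the column in these correlations was not tested. With the replicate number as a block, 0 of the 39 genes were called, their median was -0.10, 37 had an interval within 1.5-fold, and 324 probes were called higher and 262 lower. The adjusted p from limma under the block was, whatever the fold change, 0.234 for *Mbl2* (0.0555 to 0.437 over the alternatives), above 0.2, and 0.124 for *C9* (0.124 to 0.517), below it. Dim probes, such as the second probe of *Masp1*, are limited by the signal over background.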
